A study of Rattus norvegicus with 7 samples.

Results

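Amino acid transporters and the enzymes of serine synthesis were followed in rat bone marrow mesenchymal stem cells (rMSCs) at 4 h after seeding on plastic or on polymer films. The 10 genes were taken by symbol from the 17147 symbols of the deposited tables. They were the transporter genes Slc7a5, Slc3a2, Slc7a1, Slc38a1, Slc38a2, Slc1a4 and Slc1a5 and the enzyme genes Psat1, Phgdh and Shmt2, and all 10 were found and passed the filter on low values. The study seeded rMSCs on ISB-P, PCL and TCP and read polyadenylated RNA to compare the transcriptomes of cells adhering to ISB-P and PCL. ISB-P is a polyurethane copolymer made from polycaprolactone diol, a diisocyanate and propoxylated isosorbide. PCL is a film of commercial polycaprolactone, with neither the isosorbide nor the urethane bonds, and TCP is tissue culture plastic without a film. The polymers thus differ in more than the isosorbide. The 3 ISB-P and 3 PCL libraries came from films of 16 mm in diameter sterilized with ethylene oxide gas, and 1 TCP library was analysed here. The sequencing of the specimens, TCP included, is described with n = 3, and whether the TCP library stands for 1 culture or a pool is not given in the sources used here, so each TCP value below rests on 1 library of unknown make-up. By the study's methods the primary cells were taken from the marrow of a male Sprague–Dawley rat aged 6 weeks. They were grown in alpha MEM with serum, penicillin and streptomycin. For the sequenced cells the methods name no gene modification and no drug treatment in any group. The study speaks of triplicate experiments, but neither the labels nor the methods say whether the libraries of a film came from separate cultures or animals, so the p-values measure only the spread between these libraries, which may be technical.

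Levels are given as FPKM, fragment numbers scaled for transcript length and library total, so that genes can be compared per length. The sums over all symbols lay between 539393 and 660124 FPKM, and 4537 to 5105 symbols were listed at 0 in a library. The number of reads behind a value is unknown, and precision rests on the 3 libraries of each film. All 8 mesenchymal markers (Thy1, Nt5e, Eng, Cd44, Itgb1, Pdgfrb, Col1a1 and Vim) reached 1 FPKM in all 7 libraries, with summed levels of 11552 to 13361 FPKM on PCL, 10224 to 13350 FPKM on ISB-P and 17948 FPKM on TCP. The 6 endothelial markers stayed under 0.5 FPKM in every library, as did the 4 of 6 erythroid markers found in the files. Of these, Cd34, Hba1, Hbb and Hbb-b1 were listed at 0 in all 7 libraries, as were Aldh18a1 and Slc25a22, genes that most cells use, so that a listed 0 can be a failed estimate and is not read as absence. Of 10 leukocyte markers, 6 reached 1 FPKM in all 7 libraries, and the summed level of the list was 47.0 to 58.0 FPKM on PCL, 48.4 to 55.5 FPKM on ISB-P and 150.1 FPKM on TCP. Sums can hide single markers. Pdgfrb was at 166 ± 11.6 FPKM on PCL and 97.8 ± 11.5 FPKM on ISB-P (SD, n = 3 each), without overlap. Cd14 was at 15.3 ± 1.11 and 11.2 ± 0.266 FPKM, also without overlap. Both are singled out after their values were seen, and the films overlapped for the other mesenchymal and leukocyte markers.

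Cells take up amino acids through carriers with overlapping substrates. Slc3a2 encodes the heavy chain (CD98, 4F2hc) that carries several light chains to the plasma membrane, among them Slc7a5 (LAT1), which exchanges large neutral amino acids such as leucine. Serine is made from a glycolytic intermediate by Phgdh, Psat1 and Psph in turn, and Shmt2 splits it in mitochondria into glycine and a one-carbon unit for folate metabolism. Many of these genes are textbook targets of Atf4, a transcription factor whose translation rises when amino acids are scarce or the endoplasmic reticulum is stressed.

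The promoters are shown for 4 members because they hold a short motif of factors known to act on these genes. A further reason, taken from the results below, is that 3 of the 4 were called higher on ISB-P with libraries paired by number. With these pairs 13.0% of all tested genes were called higher, and without them none of the 4 was called. A link between the motifs and the levels was not tested. In the RefSeq promoter windows of build GRCr8, from 250 bases before to 50 bases after each start, 9 of the 10 members had an entry, with 10 windows in all, and Slc1a5 had none. TGATGNAA, the core of the C/EBP-ATF response element that Atf4 can bind, was searched on both strands (TTNCATCA on the other), as was CACGTG, the E-box, which reads the same on both. TGATGNAA was found in 3 of the 10 member windows, against 3.98% of all 33469 windows, and CACGTG in 2, against 6.42%. A match is a description of the letters and not a binding site. The stretches run 5′ to 3′ along the strand of the gene, and capitals mark the motif.
Slc1a4, chr14:98761713-98761812, minus strand: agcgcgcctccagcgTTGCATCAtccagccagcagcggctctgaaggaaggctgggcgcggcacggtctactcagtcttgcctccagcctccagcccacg
Slc7a1, chr12:11664388-11664487, plus strand: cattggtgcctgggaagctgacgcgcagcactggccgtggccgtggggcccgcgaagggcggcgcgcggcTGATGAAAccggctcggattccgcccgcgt
Slc38a1, chr7:129681525-129681554, minus strand: gggggaaactcTGATGCAAccaaccagtcc
Slc7a5, chr19:66872542-66872641, minus strand: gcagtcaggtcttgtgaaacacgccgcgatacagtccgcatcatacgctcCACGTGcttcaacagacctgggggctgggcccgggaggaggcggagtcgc
The motif lay 235 bases before the start in Slc1a4, 30 in Slc7a1, 142 in Slc38a1 and 179 in Slc7a5. Slc1a4 also held CACGTG, 20 bases before its start, outside the stretch printed and apart from the other motif. Slc3a2 had 2 windows, and neither held either set of letters.

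Slc3a2 was the most abundant member in each of the 7 libraries. On PCL the mean levels followed in the order Slc38a2, Slc1a4, Slc7a5, Shmt2, Slc1a5, Psat1, Slc7a1, Phgdh and Slc38a1, and the libraries of 4 neighbouring pairs overlapped (Slc38a2 and Slc1a4, Slc7a5 and Shmt2, Slc1a5 and Psat1, Phgdh and Slc38a1). On ISB-P the order after Slc3a2 was Slc1a4, Slc38a2, Slc7a5, Shmt2, Psat1, Slc1a5, Slc7a1, Slc38a1 and Phgdh. There Slc1a4 and Slc38a2, Slc38a2 and Slc7a5, Psat1 and Slc1a5, and Slc38a1 and Phgdh overlapped.

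**Figure D1:**
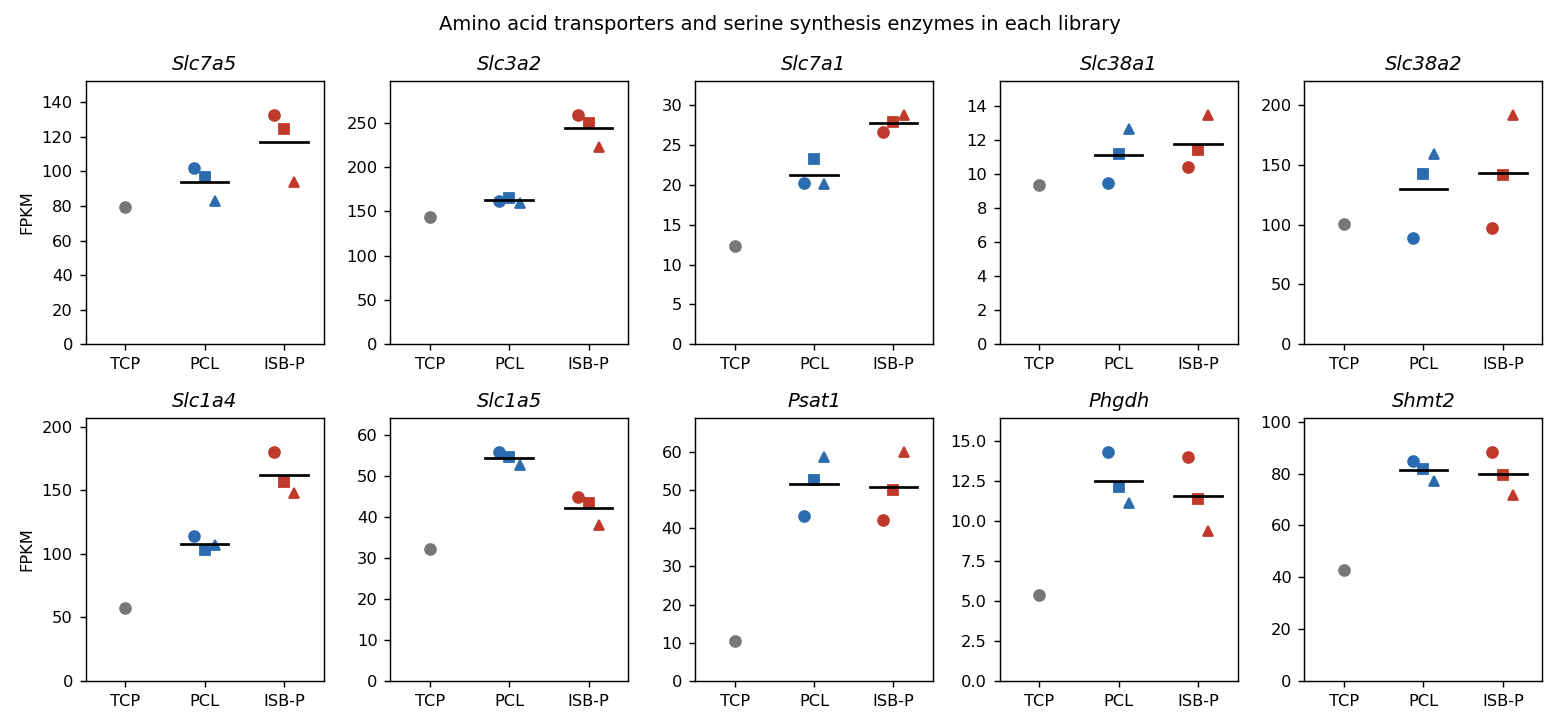
Level of each member in FPKM (y axis, from 0) in the TCP, PCL and ISB-P libraries (x axis). Circles, squares and triangles are replicates 1, 2 and 3, and bars are film means. Slc3a2, Slc7a1 and Slc1a4 lie higher in all ISB-P than in all PCL libraries, Slc1a5 lies lower, and Psat1 on both films lies far above its TCP value of 10.5 FPKM.

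The comparison of ISB-P with PCL asks which of these genes differed between the films. With same-numbered libraries taken as pairs, Slc3a2, Slc1a4, Slc7a1 and Slc7a5 were called higher on ISB-P and Slc1a5 lower (adjusted p under 0.05). The call of Slc7a5 was lost with every other scaling tried. Slc38a1, Slc38a2 and the 3 enzyme genes did not pass the test, and without the pairs none of the members did. Differences were tested two-sided with limma on log2(FPKM + 1), and p-values were adjusted by Benjamini and Hochberg over the 9467 genes that reached 1 FPKM in 3 or more of the 6 film libraries. Without the replicate number, 0 of 10 members had an adjusted p under 0.05, where 1.72% of all tested genes had one, and 4 members had an unadjusted p under 0.05, against 1145 of all genes. By the limits the study used, a fold over 2 at an unadjusted p under 0.1 among genes averaging 16 FPKM or more on a film, 0 members and 0.687% of the tested genes were called.

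Libraries with the same replicate number deviated from their film means together, although the labels do not say what a number marks, and with the number as a block 4 members were called higher on ISB-P and 1 lower. Over all tested genes the block called 13.0% higher and 11.4% lower, so that 5 of 10 members stand beside 24.4% of all genes. The members were chosen with earlier results of these data known. Their shares and medians beside those of all genes are therefore descriptions and not tests. The 1228 higher and 1079 lower calls became 714 and 2113 when the libraries were scaled to a common total, and the 104 higher and 59 lower calls without the block became 70 and 70. The median log2 fold change was 0.10 over the members and 0.02 over all tested genes. In 3 members all ISB-P libraries lay above all PCL libraries and in 1 below, where 8.17% and 9.54% of the tested genes were separated in these directions. In bulk RNA, a change in the make-up of the cells and a change of RNA per cell cannot be told apart.

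**Figure D2:**
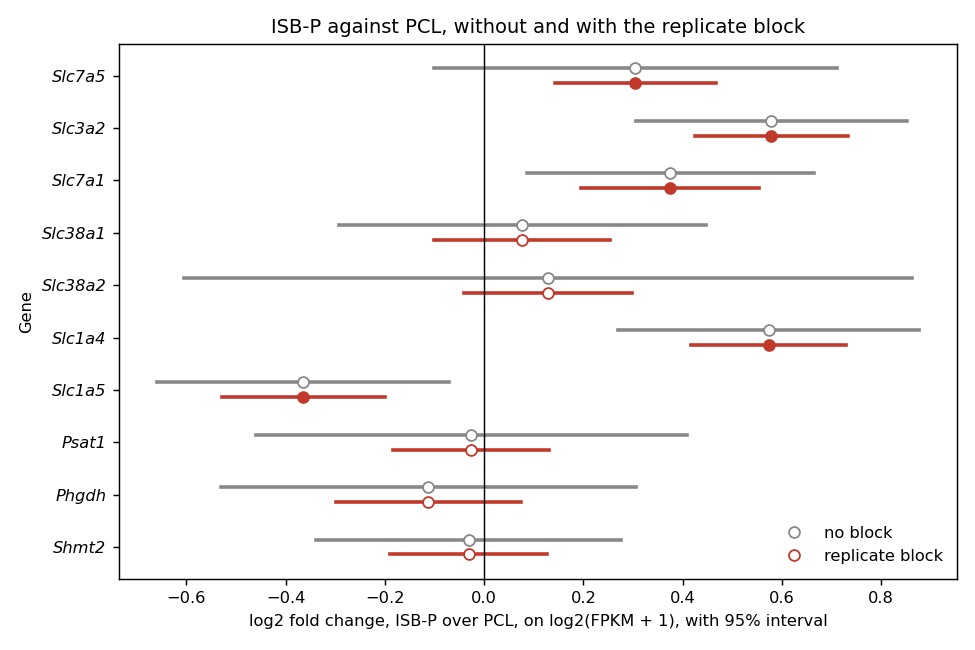
Log2 fold change of ISB-P over PCL on log2(FPKM + 1) (x axis) for each member (y axis), with its 95% interval, without the replicate block in grey and with it in red. Filled points have an adjusted p under 0.05, which 5 members reached with the block and none without it.

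The heavy chain gene Slc3a2 stood at 161.7, 165.4 and 159.6 FPKM in PCL replicates 1, 2 and 3 and at 258.1, 249.0 and 222.7 FPKM in the ISB-P replicates. All ISB-P libraries were above all PCL libraries, with means of 243 ± 18.4 and 162 ± 2.94 FPKM (SD, n = 3 each). Its level was 1.60, 1.51 and 1.40 times higher on ISB-P for replicates 1, 2 and 3. The log2 fold change of 0.58 (SE 0.12) missed the threshold in limma without the block (adjusted p = 0.0723) and passed it with the block (SE 0.07, adjusted p = 6.51e-04). The exact permutation test gave p = 0.1, the smallest that 3 libraries against 3 allow.

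Its light chain Slc7a5 was measured at 102.0, 96.8 and 83.0 FPKM on PCL and at 132.4, 124.7 and 94.0 FPKM on ISB-P. The films overlapped, since ISB-P replicate 3 lay below PCL replicates 1 and 2, although each ISB-P library was above the PCL library of its own number by 1.30, 1.29 and 1.13 times. The log2 fold change was 0.30 (SE 0.17, 95% interval -0.10 to 0.71) with an adjusted p of 0.603 in limma, and 0.0165 with the block (SE 0.07). This blocked call was lost with every other scaling tried (adjusted p of 0.0622 with the upper quartile, 0.106 with quantiles and 0.0815 with a common total) and without pair 1 (0.143) or pair 2 (0.0917). The exact test gave p = 0.3.

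Slc7a1 (CAT-1), the main carrier of arginine, lysine and ornithine in most cells, was at 20.3, 23.2 and 20.2 FPKM on PCL and at 26.7, 27.9 and 28.8 FPKM on ISB-P. No ISB-P library reached down to the PCL range, and the 3 ratios by replicate number were 1.31, 1.20 and 1.43. The log2 fold change of 0.37 (SE 0.12) had an adjusted p of 0.254 in limma and 0.0106 with the block.

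The carriers of small neutral amino acids parted in direction. Slc1a4 (ASCT1), an exchanger of alanine, serine and cysteine, was at 114.3, 103.3 and 106.6 FPKM on PCL and at 180.2, 156.7 and 148.3 FPKM on ISB-P. Every ISB-P library lay above the PCL range, with a log2 fold change of 0.57 (SE 0.13) and adjusted p-values of 0.0995 in limma and 7.23e-04 with the block. Slc1a5 (ASCT2), its relative that also exchanges glutamine, was at 55.9, 54.7 and 52.8 FPKM on PCL and at 45.0, 43.6 and 38.0 FPKM on ISB-P. Here every ISB-P library lay below the PCL range, at 0.804, 0.797 and 0.720 of the PCL level by replicate number, with a log2 fold change of -0.36 (SE 0.12) and adjusted p-values of 0.277 in limma and 0.00802 with the block. The exact test again gave its smallest p of 0.1 for Slc7a1, Slc1a4 and Slc1a5. The blocked calls of Slc3a2, Slc7a1, Slc1a4 and Slc1a5 held with each of the 3 other scalings and without each replicate pair. The fits without a pair have few residual degrees of freedom and lean on the variance pooled over all tested genes, so they are a weak check. The same holds in part for the blocked fit of all 6 film libraries, where the SE was 0.07 to 0.08 for every member. The blocked p-values thus do not rest on the spread of each gene alone.

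The ratio of Slc1a4 to Slc1a5, a quantity chosen after the values were seen, was 3.83 ± 0.214 on ISB-P and 1.98 ± 0.0822 on PCL (SD, n = 3 each), without overlap, and 1.79 on TCP. Since Slc1a4 lay higher and Slc1a5 lower in all ISB-P than in all PCL libraries, this ratio could not overlap and is not separate support. Such a ratio is unchanged when a library is multiplied by 1 factor, though not by quantile normalization. The ratio of Psat1 to Phgdh and that of Slc38a2 to Slc38a1 overlapped between the films.

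The sodium-coupled carriers Slc38a1 (SNAT1) and Slc38a2 (SNAT2), which bring in glutamine, alanine and serine, did not pass the test between the films. Slc38a1 was at 9.49, 11.2 and 12.7 FPKM on PCL and at 10.4, 11.4 and 13.4 FPKM on ISB-P, with a log2 fold change of 0.08 and a 95% interval of -0.29 to 0.45, or -0.10 to 0.25 with the block. Slc38a2 was at 88.8, 142.4 and 159.0 FPKM on PCL and at 97.3, 141.5 and 191.3 FPKM on ISB-P. Its log2 fold change was 0.13, with an interval of -0.60 to 0.86, or -0.04 to 0.30 with the block. The adjusted p-values in limma were 0.936 for Slc38a1 and 0.948 for Slc38a2, and 0.50 and 0.235 with the block.

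Slc38a2 varied more between the libraries of 1 film than any other member. Replicate 3 was the highest and replicate 1 the lowest on both films, with a log2 difference between them of 0.83 on PCL and 0.97 on ISB-P. Psat1 (0.44 and 0.50) and Slc38a1 (0.38 and 0.34) differed between the same libraries in the same direction, and Phgdh (-0.34 and -0.53) and Slc7a5 (-0.29 and -0.49) in the opposite one.

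No gene of the serine pathway passed the test between the films, within intervals that leave room for modest differences. Psat1, the aminotransferase of the second step, was at 43.2, 52.6 and 58.7 FPKM on PCL and at 42.1, 50.0 and 59.9 FPKM on ISB-P, with a log2 fold change of -0.03 (95% interval -0.46 to 0.41, or -0.18 to 0.13 with the block). Phgdh, the dehydrogenase of the first and committed step, was at 14.3, 12.1 and 11.1 FPKM on PCL and at 14.0, 11.4 and 9.34 FPKM on ISB-P. Its log2 fold change was -0.11 (interval -0.53 to 0.31, or -0.30 to 0.07 with the block). Shmt2 was at 85.0, 82.0 and 77.3 FPKM on PCL and at 88.3, 79.5 and 71.8 FPKM on ISB-P, with a log2 fold change of -0.03 (interval -0.34 to 0.28, or -0.19 to 0.13 with the block). The films overlapped for all 3, and the adjusted p-values in limma were 0.978, 0.923 and 0.965 for Psat1, Phgdh and Shmt2, and 0.810, 0.344 and 0.768 with the block. Psph, the phosphatase that ends the pathway, was at 15.0, 12.7 and 14.5 FPKM on PCL and at 14.0, 14.1 and 13.5 FPKM on ISB-P, with a log2 fold change of -0.02.

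Slc3a2 serves several light chains, and Slc7a11 (xCT), the cystine and glutamate exchanger, was the one with the largest difference between the films. Slc7a11 was at 9.44, 16.8 and 21.1 FPKM on PCL and at 32.2, 50.1 and 98.6 FPKM on ISB-P, while TCP had 0.287 FPKM. All ISB-P libraries lay above all PCL libraries, at 3.41, 2.98 and 4.67 times the PCL level by replicate number, with a log2 fold change of 1.79 (SE 0.44, adjusted p = 0.136 in limma, or SE 0.12 and adjusted p = 3.07e-05 with the block). The light chains Slc7a5, Slc7a6, Slc7a7, Slc7a8, Slc7a10 and Slc7a11 together came to 211 ± 22.2 FPKM on ISB-P and 141 ± 5.31 FPKM on PCL (SD, n = 3 each), without overlap, and to 110.5 FPKM on TCP. Slc7a11 made up 16.8%, 24.1% and 41.9% of this sum on ISB-P, 6.85%, 11.4% and 15.2% on PCL and 0.259% on TCP. The level of Slc3a2 relative to the sum overlapped between the films, at 1.17 ± 0.204 on ISB-P and 1.15 ± 0.0260 on PCL, and was 1.29 on TCP. These sums and ratios were chosen with the values in view. The two-sided exact permutation test gave its smallest p of 0.1 for the sum and for the Slc7a11 share, and p = 1 for Slc3a2 relative to the sum (0.175, 0.175 and 1 when adjusted over the 7 such quantities computed).

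**Figure D3:**
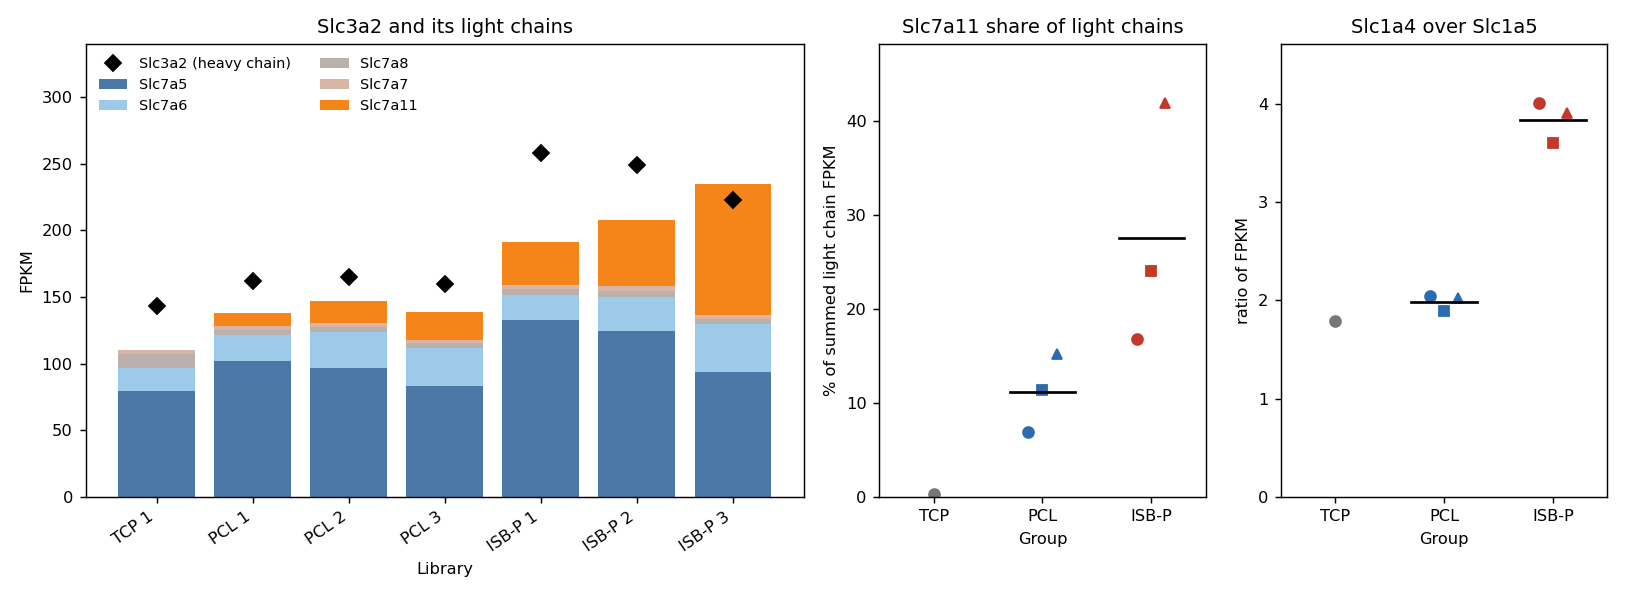
Left, FPKM of the Slc3a2 heavy chain (diamonds) and of its light chains (stacked bars) in each library, without Slc7a10, which was at most 0.142 FPKM. Centre and right, Slc7a11 as a percentage of the summed light chain FPKM and the ratio of Slc1a4 to Slc1a5 for the TCP, PCL and ISB-P libraries, with circles, squares and triangles for replicates 1, 2 and 3 and bars for film means. On ISB-P the Slc7a11 share reached 16.8% to 41.9%, and the Slc1a4 to Slc1a5 ratio averaged 3.83 against 1.98 on PCL.

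The comparison with TCP asks how the films differed from culture plastic, and with 1 TCP library it has no replicate check and no test. The film means of all 10 members were above TCP, and Psat1 had the largest ratio on either film. Ratios below are of the film mean to the TCP value in FPKM. Psat1 was at 10.5 FPKM on TCP, and its film means were 4.90 times that on PCL and 4.82 times on ISB-P, with single film libraries between 4.01 and 5.70 times. Phgdh was at 5.35 FPKM on TCP and was 2.34 and 2.16 times higher on PCL and ISB-P. Shmt2 was at 42.8 FPKM on TCP and was 1.90 and 1.87 times higher, and Psph was at 7.33 FPKM and 1.92 and 1.89 times higher. The 6 film libraries lay above TCP for each of these 4 genes.

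Among the transporters, Slc1a4 was at 57.7 FPKM on TCP and 1.87 times higher on PCL and 2.80 times on ISB-P, and Slc7a1 was at 12.3 FPKM and 1.73 and 2.26 times higher. Slc3a2 was at 143.0 FPKM on TCP, with ratios of 1.13 and 1.70, and Slc7a5 was at 79.2 FPKM, with ratios of 1.19 and 1.48. For these 4 genes the ratio was the larger on ISB-P. Slc1a5, at 32.3 FPKM on TCP, had ratios of 1.69 on PCL and 1.31 on ISB-P. Slc38a1 was at 9.37 FPKM on TCP, with ratios of 1.19 and 1.25. Slc38a2 was at 100.8 FPKM, and only 4 of the 6 film libraries were above that value, whereas all 6 were for the other 9 members. With upper quartile scaling, all 6 film libraries stayed above TCP for 5 members (Slc7a1, Slc1a4, Psat1, Phgdh and Shmt2).

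On the scale of log2(mean + 1), 2 members (Psat1 and Phgdh) were over 2-fold higher on PCL than on TCP and 3 (Psat1, Slc1a4 and Slc7a1) on ISB-P, and 0 were over 2-fold lower on either film. Over the 9798 genes with at least 1 FPKM in any group mean, 5.37% were over 2-fold higher and 3.52% over 2-fold lower on PCL, and 8.72% and 4.72% on ISB-P. The median log2 difference from TCP was 0.74 on PCL and 0.82 on ISB-P over the members, and 0.06 and 0.05 over all these genes. Upper quartile scaling moved the median of all genes to -0.06 on PCL and -0.13 on ISB-P. Both film comparisons share the TCP library. The summed leukocyte markers, 150.1 FPKM on TCP against at most 58.0 FPKM on the films, differed between the same libraries, and their part in these differences was not tested.

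**Figure D4:**
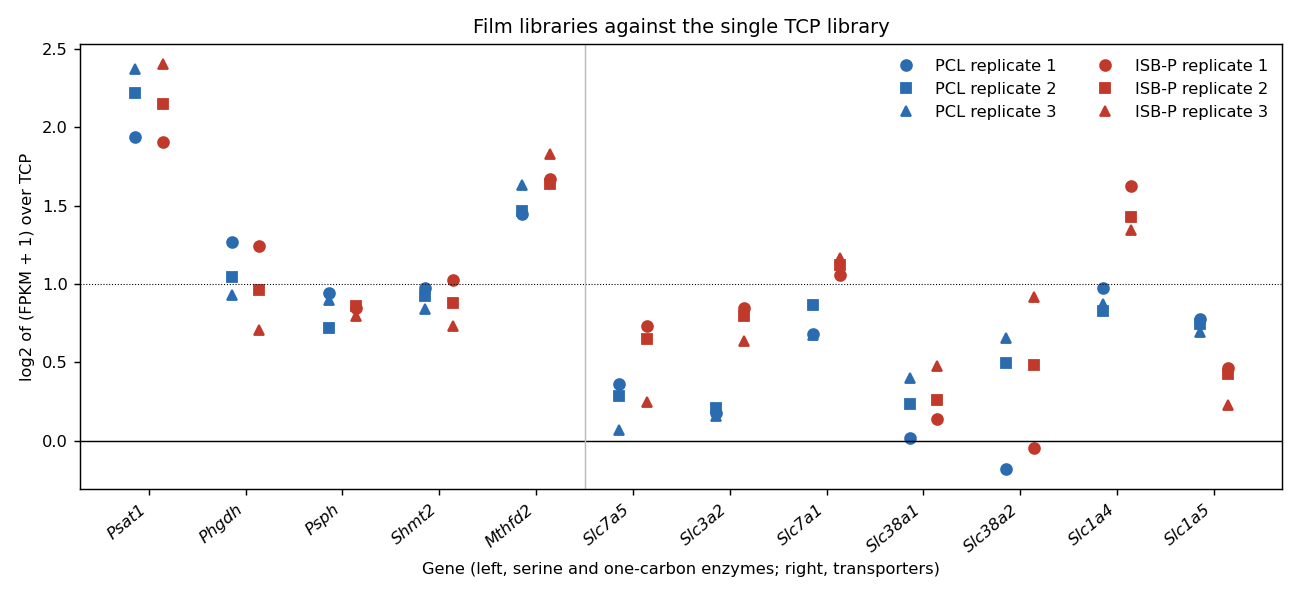
Log2 of (FPKM + 1) of each film library over the TCP library (y axis) for the serine and one-carbon enzymes on the left and the transporters on the right (x axis). The solid line is no difference and the dotted line is 2-fold. All film libraries are above 0 except replicate 1 on each film for Slc38a2, and the values of Psat1 are the highest.

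The other genes of the pathway were counted over 6 lists. Of 19 other amino acid transporters tested, 1 was called higher and 1 lower on ISB-P without the block, 2 higher and 3 lower with it (26.3%, beside 24.4% of all tested genes), and the median log2 fold change was -0.04. The 2 called in both fits were close relatives that carry large neutral amino acids without a heavy chain. Slc43a1 (LAT3) was at 5.11, 4.73 and 4.86 FPKM on PCL and at 3.13, 2.77 and 2.96 FPKM on ISB-P, and it fell by 0.58 on the log2 scale (adjusted p = 0.04995 in limma, 0.00222 with the block). Slc43a2 (LAT4) was at 4.01, 3.83 and 3.59 FPKM on PCL and at 7.14, 6.30 and 6.08 FPKM on ISB-P, and it rose by 0.64 (adjusted p = 0.0499 in limma, 0.00130 with the block). Both calls lay at the threshold and were lost without the block with any 1 library left out (adjusted p of 0.0981 to 0.310 for Slc43a1 and 0.0735 to 0.253 for Slc43a2) and with upper quartile scaling (0.0820 and 0.169). Their ratio, Slc43a2 over Slc43a1, chosen after the values were seen, was 2.20 ± 0.131 on ISB-P and 0.778 ± 0.0357 on PCL (SD, n = 3 each), and 1.90 on TCP. With Slc43a2 higher and Slc43a1 lower in all ISB-P than in all PCL libraries, this ratio had to differ and is not separate support.

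Of 15 other genes of serine, glycine and folate one-carbon metabolism tested, 0 were called in limma without the block, where 2 had an unadjusted p under 0.05, and 3 were called higher and 1 lower with it (26.7%). The median was 0.05. Mthfd2, the mitochondrial folate enzyme that acts after Shmt2, was at 48.8, 49.3 and 55.6 FPKM on PCL and at 57.1, 55.9 and 63.7 FPKM on ISB-P, without overlap but with adjusted p-values of 0.685 in limma and 0.0644 with the block. Against TCP, at 17.2 FPKM, Mthfd2 was 2.97 times higher on PCL and 3.42 times on ISB-P. Of the 17 genes of this list within the TCP comparison, 7 were over 2-fold higher on PCL and 7 on ISB-P, and 1 was over 2-fold lower on PCL and 0 on ISB-P, with medians of 0.86 and 0.83. Besides Mthfd2, those over 2-fold higher on both films included Tyms and Gcsh, which were chosen here after their values were seen.

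Of 18 other enzymes of amino acid synthesis and breakdown, 0 were called without the block in limma (2 with an unadjusted p under 0.05), and 1 higher and 3 lower with it (22.2%), with a median of -0.01. Asns, which makes asparagine and is a textbook Atf4 target, was at 21.9, 28.3 and 28.6 FPKM on PCL and at 22.7, 28.5 and 35.1 FPKM on ISB-P. Its adjusted p-values were 0.931 in limma and 0.331 with the block, and the films overlapped. Of 20 cytosolic aminoacyl-tRNA synthetases, which load amino acids onto tRNA, 0 were called without the block (1 with an unadjusted p under 0.05), and 5 higher and 0 lower with it (25%), with a median of 0.16. With both directions counted, the blocked shares of these 4 lists lay near the 24.4% of all tested genes. The synthetase calls were all higher, where 13.0% of all tested genes were called higher and 11.4% lower.

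Of 20 stress response regulators tested, 2 were called higher and 0 lower without the block, and 7 higher and 3 lower with it (50%, beside 24.4% of all tested genes), with a median of 0.06. Atf4 mRNA was at 277.4, 307.9 and 315.0 FPKM on PCL and at 420.5, 430.6 and 483.3 FPKM on ISB-P, without overlap (log2 fold change 0.57, adjusted p = 0.0834 in limma and 5.23e-04 with the block), and at 220.5 FPKM on TCP. Ddit3 (CHOP), a transcription factor of the endoplasmic reticulum stress response, rose from 14.9 ± 2.14 FPKM on PCL to 56.1 ± 11.9 FPKM on ISB-P (adjusted p = 0.00805 in limma), with 27.8 FPKM on TCP. Atf3, a stress-induced transcription factor, rose from 7.39 ± 0.585 to 16.9 ± 1.76 FPKM (adjusted p = 0.0159 in limma), with 14.6 FPKM on TCP. Without PCL replicate 2 both calls were lost (adjusted p = 0.0735 for Ddit3 and 0.140 for Atf3), and that of Atf3 was also lost without PCL replicate 1 (0.0802), PCL replicate 3 (0.0648) or ISB-P replicate 2 (0.0820). Myc, whose protein drives growth and binds E-boxes, was at 82.2, 74.7 and 76.7 FPKM on PCL and at 99.7, 87.4 and 75.7 FPKM on ISB-P, where the films overlapped (adjusted p = 0.836 in limma, 0.167 with the block). Of 21 genes of amino acid sensing upstream of the growth kinase complex mTORC1, 0 were called without the block in limma (2 with an unadjusted p under 0.05), and 3 higher and 1 lower with it (19.0%, below the 24.4% of all tested genes), with a median of -0.03.

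**Figure D5:**
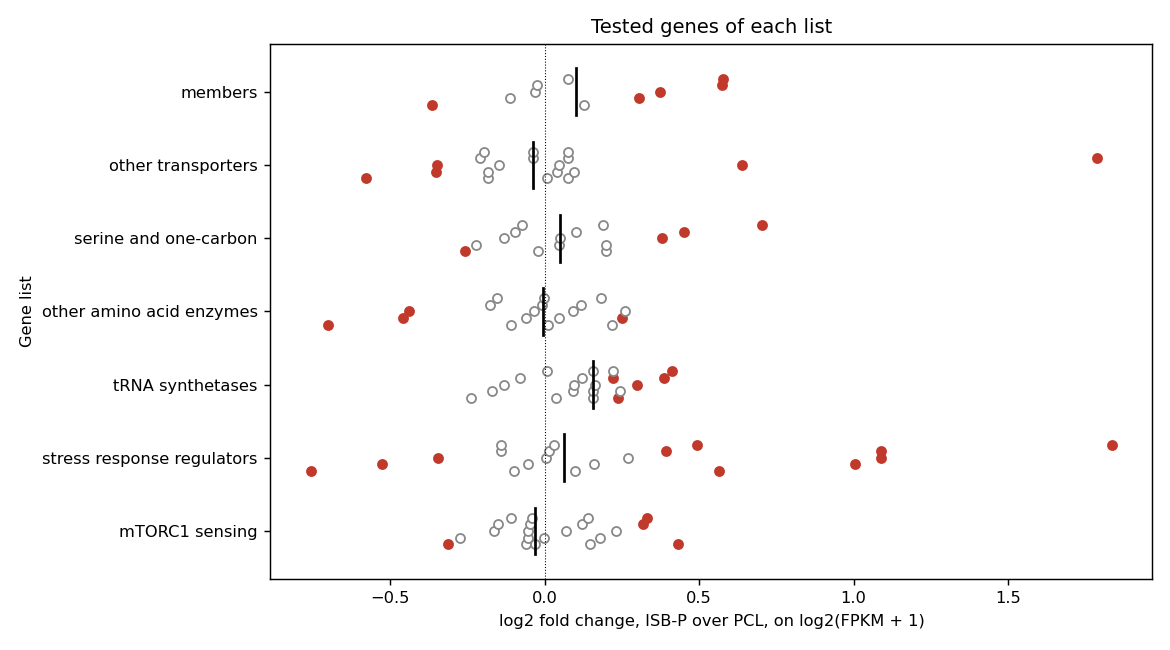
Log2 fold change of ISB-P over PCL on log2(FPKM + 1) (x axis) for the tested genes of each list (y axis). Each circle is a gene, filled in red where the adjusted p was under 0.05 with the replicate block, and vertical bars are list medians, 0.10 for the members and between -0.04 and 0.16 for the other lists.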

How the data were processed

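RNA of 7 rMSC libraries was analysed. By the labels and the study's methods, TruSeq stranded mRNA libraries were read as paired ends. The submitters' processing notes list bcl2fastq 2.20.0.422, cutadapt 1.18, TopHat2 2.0.13, Cuffdiff 2.2.1 and build rn5, and the methods name ExDEGA. The authors deposited 1 normalized value per symbol and library, read here as FPKM from the values and the listed tools, since no header names the unit. Read depth is unknown, so no counting interval is given.

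Groups and replicate numbers came from the sample titles. ISB-P and PCL were compared with limma 3.58.1 in R 4.3.3 (lmFit, eBayes with a trend) on log2(FPKM + 1), over genes that reached 1 FPKM in 3 or more of 6 film libraries. The pseudocount of 1 understates fold changes of low genes. The fit was tested on simulated data with changes larger than that of any member, so this does not show how often differences of the members' size would be found. TCP, with 1 library, stayed out of the fit. Deviations from film means correlated between same-numbered libraries (r = 0.887, 0.431 and 0.867 over 9467 genes). The mean for different numbers was -0.36, a negative value that centring on the film means largely imposes once same numbers correlate. The numbers were thus taken to pair the libraries from the data alone, and a fit with the number as a block stands beside the main one.

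The members and lists were chosen with earlier results of these data known. Named besides the members were genes with an adjusted p under 0.05 without the block (at most 4 per list) and Psph, Asns, Atf4, Slc7a11, Mthfd2 and Myc. Any other gene named is marked as picked from its values. Alternatives were other scalings, filters and pseudocounts, TCP in the fit, the block, the study's limits and each library left out. Blocked fits with other scalings or without 1 pair were chosen after seeing the data. Promoter sequences came from RefSeq tables, and coordinates in rn5 were not used here. Python 3.11.15 with matplotlib 3.10.9 drew the figures.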

Additional observations from a re-analysis of the deposited data

How the results depend on the processing

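Slc7a5, Slc3a2, Slc7a1, Slc1a4 and Slc1a5 kept their direction under all 14 alternatives listed in advance. Every member stayed above the threshold without the block, whichever library was left out. Depth is unknown, and with 3 libraries a film the exact test cannot go below 0.1. The blocked fit rests on few residual degrees of freedom, and the added fits without 1 replicate pair on fewer still.

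The replicate block moved the members called from 0 to 4 higher and from 0 to 1 lower, the genes of the other lists from 3 and 1 to 21 and 11, and all tested genes from 104 and 59 to 1228 and 1079. With the block and upper quartile scaling the counts were 3 and 1, 17 and 19, and 822 and 1558. With the block and quantile normalization they were 3 and 1, 16 and 13, and 1083 and 1224. With the block and a common total they were 3 and 1, 15 and 25, and 714 and 2113. With the block and 1 pair left out, for pairs 1, 2 and 3 in turn, the members gave 3, 3 and 4 higher with 1 lower each, the lists 15, 19 and 31 higher with 7, 8 and 16 lower, and all genes 893, 1181 and 1758 higher with 880, 823 and 1379 lower. Without the block, upper quartile scaling gave 69 higher and 39 lower over all genes, the filter on all 6 film libraries gave 35 lower, and the study's limits gave 58 higher and 7 lower. The 1 lower call in the lists (Slc43a1) became 0 with the upper quartile, quantiles, both other filters, the pseudocount of 0.1, TCP in the fit and the study's limits. Leaving out 1 library gave 0 to 2 higher and 0 lower calls in the lists and 14 to 82 higher and 6 to 31 lower over all genes.

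The members' median of 0.10 became 0.0268 with the upper quartile and -0.00823 with a common total, with or without the block, and -0.00952 to 0.194 with 1 library left out. Over all tested genes these scalings moved the median from 0.02 to -0.06 and -0.09. The direction turned for Slc38a1 with a common total, blocked or not (-0.0298), and for Slc38a2 with quantiles, blocked or not (-0.0186). It turned with the block for Shmt2 without pair 3 (0.00535) and for Psph without pair 1 (0.0187) or 3 (0.0192). With 1 library left out and no block, the log2 fold change spanned 0 for Slc38a1 (-0.0217 to 0.168), Slc38a2 (-0.123 to 0.379), Psat1 (-0.152 to 0.0972), Phgdh (-0.247 to 0.0200), Shmt2 (-0.106 to 0.0418), Psph (-0.0864 to 0.0241) and Asns (-0.0331 to 0.270). The cause was not tested, and none of these values passed the test.

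Against TCP, 2 members over 2-fold higher on PCL became 1 with the upper quartile, 6 at a fold of 1.5 and 1 to 2 with 1 library left out (1 without PCL replicate 1). On ISB-P, 3 became 2 with the upper quartile or a common total and 4 with the pseudocount of 0.1. It became 6 at a fold of 1.5 and 3 to 4 with 1 library left out.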

Other observations

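Of the mTORC1 sensing list, the genes called higher on ISB-P with the replicate block were Fnip1, Fnip2 and Rheb, and Nprl2 was called lower, with adjusted p-values in limma of 0.0198, 0.0222, 0.0144 and 0.0396. Without the block they were 0.819, 0.307, 0.899 and 0.296. These 4 of 21 genes (19.0%) stand beside 24.4% of all tested genes called with the block. These genes were chosen after their values were seen. Fnip2 was at 5.02 ± 0.510 FPKM on PCL and 6.57 ± 0.416 FPKM on ISB-P (SD, n = 3 each), and Nprl2, a subunit of the GATOR1 complex that restrains mTORC1, was at 5.80 ± 0.376 and 4.47 ± 0.257 FPKM, both without overlap. The films overlapped for Fnip1 and Rheb.

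Among the tRNA synthetases, the 5 called higher with the block were Aars, Farsb, Nars, Tars and Yars, also named after their values were seen. They are 25% of the 20 tested, with 0 called lower, beside 13.0% of all tested genes called higher and 11.4% lower. The films overlapped for Farsb, Nars and Tars, whose adjusted p-values in limma without the block were 0.749, 0.898 and 0.616. Aars, which charges alanine tRNA, was at 97.7 ± 3.48 FPKM on PCL and 128 ± 5.83 FPKM on ISB-P (SD, n = 3 each), without overlap, with an adjusted p of 0.195 in limma and 0.00382 with the block. It was at 68.5 FPKM on TCP.

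Genes of the stress response list did not all move one way with the block, as 4 genes chosen after their values were seen show. Trib3 and Ppp1r15a were higher on ISB-P, at 7.97 ± 2.41 against 3.25 ± 1.37 FPKM and 51.9 ± 10.1 against 25.3 ± 4.79 FPKM (SD, n = 3 each). Chac1, a glutathione-degrading enzyme, and Ddit4, an mTORC1 inhibitor, were lower, at 3.01 ± 0.815 against 5.68 ± 0.477 FPKM and 15.8 ± 2.38 against 23.2 ± 1.95 FPKM. Their adjusted p-values with the block were 1.48e-04, 4.95e-05, 0.00153 and 0.00246 in limma, and 0.147, 0.0667, 0.112 and 0.192 without it. In these 4 genes the films did not overlap.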
